A study of Mus musculus with 160 samples.

Results

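The 10 genes described here lie on mouse chromosome 5 beside Abhd1 or beside Htt, the huntingtin gene, and are 10 of the 43432 genes in the deposited tables. They were chosen by position around those 2 genes, and they are Emilin1, Khk, Cgref1, Abhd1 itself and Preb, and then Add1, Mfsd10, Nop14, Grk4 and Rgs12. Abhd1 was picked because its level follows the knock-in allele in these same libraries, so its difference between genotypes is given as a description with no test. The question put to the other 9 genes was whether any of them follows the allele as well.

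The 5 tissues, namely liver, heart, tibialis muscle, cortex and striatum, were profiled by RNA-seq in 32 mice on the C57BL/6J background, collected at 6 months of age. There were 4 arms of 8 animals, each of 4 males and 4 females, and each animal gave all 5 tissues, which makes 160 libraries. One arm was wild type (WT) and received vehicle. The other 3 arms were heterozygous Q175 knock-in mice that received vehicle, 30 mg/kg or 100 mg/kg of CHDI-00390576, an inhibitor of class IIa histone deacetylases, by mouth and twice-daily from 4 weeks of age. No WT animals received the compound, so effects of the compound can be read only in Q175 mice. The bulk tissue values cannot tell fewer cells of a type from less RNA per cell.

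Q175 mice carry an expanded CAG repeat in the first exon of Htt, the mutation that causes Huntington's disease. The allele was made in embryonic stem cells and then bred onto another background, and genes close to a targeted site tend to be inherited together with it. A difference between knock-in and WT mice in a gene near Htt can therefore come from the repeat or from alleles that travelled with it, and in a design with 1 knock-in line these cannot be told apart. The genes around Htt have unrelated jobs. Add1 encodes alpha-adducin, which caps actin filaments and ties them to spectrin, Mfsd10 a membrane transporter of the major facilitator family, Nop14 a factor needed to assemble the small ribosomal subunit, Grk4 a kinase that phosphorylates G protein-coupled receptors, and Rgs12 a regulator that speeds the shut-off of G protein signalling. Around Abhd1, which is named for the alpha/beta hydrolase fold of its family, Emilin1 encodes a glycoprotein of elastic fibres, Khk ketohexokinase, which phosphorylates fructose, Cgref1 a secreted EF-hand protein, and Preb the exchange factor that activates Sar1 where vesicles leave the endoplasmic reticulum.

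In GENCODE M21 (GRCm38), Emilin1 (chr5:30913402-30921277, plus strand), Khk (chr5:30921431-30931248, plus), Cgref1 (chr5:30933143-30945591, minus), Abhd1 (chr5:30950066-30955091, plus) and Preb (chr5:30950853-30960361, minus) stand in a row. The other group is Add1 (chr5:34573664-34632308, plus), Mfsd10 (chr5:34633642-34637212, minus), Nop14 (chr5:34638536-34660148, minus) and Grk4 (chr5:34660379-34755305, plus), followed by Htt (chr5:34761740-34912534, plus) and, farther on, Rgs12 (chr5:34949445-35039644, plus). Rgs12 is 2 protein-coding places after Htt, so it is not the gene next to it. Abhd1 starts 3.81 Mb before Htt, with 62 other genes tested in at least 1 tissue between them. Abhd1 and Preb overlap by 4239 bases on opposite strands, and 1575 of the 1758 exonic bases of Abhd1 (89.6%) lie inside exons of Preb. Whether reads were counted by strand is not given in the sources used here, so reads of these 2 genes may not be told apart. Abhd1 is annotated as a processed transcript with no coding sequence in GENCODE M21.

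Nop14 and Grk4 were the 2 members past the threshold in striatum (below), and they start head to head with 230 bases between them. The promoter window of Grk4 is therefore shown, since the window RefSeq gives for Nop14 overlaps it. The 300 bases lie at chr5:34660129-34660428 on the plus strand (RefSeq, GRCm38.p6), from 250 bases before the Grk4 start to 50 after it. Capitals mark the matches of ACTACANNTCCC on either strand, a motif that was chosen after the sequence was seen.
Grk4: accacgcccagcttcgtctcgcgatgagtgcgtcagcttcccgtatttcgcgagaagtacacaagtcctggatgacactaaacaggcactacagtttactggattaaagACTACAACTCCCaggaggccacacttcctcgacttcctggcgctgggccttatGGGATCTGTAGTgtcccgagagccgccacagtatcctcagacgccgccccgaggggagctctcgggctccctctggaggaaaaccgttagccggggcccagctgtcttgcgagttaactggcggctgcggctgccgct
The first match covers bases 110 to 121 on the plus strand and the second bases 163 to 174 on the minus strand. Of 32851 RefSeq promoter windows of this length, 595 (1.81%) hold the motif at least once and 80 (0.244%) hold it 2 or more times. The Grk4 window holds 22 CpG dinucleotides, against a median of 7 over all windows. Promoter windows were found for 9 of the 10 members, and Grk4 and Nop14, which share these bases, were the members that held the motif.

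Library totals ran from 29.8 M to 44.9 M estimated counts. Htt was lower in Q175 striatum, where WT animals ran from 112 to 151 CPM (counts scaled to the TMM-adjusted library total) with a median of 125, and vehicle-treated Q175 animals from 79.3 to 115 with a median of 99.9. The difference was -0.40 on the log2 scale (edgeR adjusted p = 0.00231). In every tissue the 4 markers of that tissue summed to over 500 CPM in each library. Markers of another tissue passed the limit of 1% of that tissue's own median in 2 cortex libraries, 3 tibialis libraries and all 32 heart libraries. The 3 tibialis libraries were WT F3 and M4 and 100 mg/kg M1, with cortex markers at 16.3%, 8.93% and 17.3% of the cortex median, and the heart libraries held cortex markers at 1.57% to 4.15%. Animals 1584 (30 mg/kg) and 6979 (100 mg/kg), both female, carried the Q175 label but had Abhd1 in the WT range in heart and liver. Animals 6000, 6776 and 5998 were labelled Q175 but had striatal Wt1, the Wilms tumour transcription factor gene, at 0.0603, 0.135 and 0.0887 CPM, inside the WT range of 0 to 0.267.

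Abhd1 was higher in Q175 than in WT mice in all 5 tissues, by the most in liver. In liver, the 8 WT animals ran from 1.23 to 2.72 CPM with a median of 1.75, and the 8 vehicle-treated Q175 animals from 16.9 to 27.7 with a median of 22.8. The 30 mg/kg arm ran from 1.61 to 31.5 CPM (median 23.7) and the 100 mg/kg arm from 2.54 to 32.02 (median 28.5). The WT and Q175 vehicle ranges did not overlap, and 22 of the 24 Q175 livers lay above every WT liver. The log2 difference between Q175 vehicle and WT was 3.62 ± 0.41 (SE), which is 12.3-fold. Of all genes tested in liver, 0.0267% had WT and Q175 vehicle ranges that did not overlap.

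In heart, Abhd1 ran from 0.958 to 3.37 CPM in WT (median 1.90) and from 6.14 to 12.5 in Q175 vehicle (median 8.10), a log2 difference of 2.18 ± 0.32. The 30 mg/kg hearts ran from 1.12 to 15.5 CPM (median 9.20) and the 100 mg/kg hearts from 1.47 to 11.1 (median 9.34). The pattern was that of liver, with no overlap between WT and Q175 vehicle (0.0375% of all genes) and 22 of 24 Q175 hearts above every WT heart.

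In striatum, Abhd1 ran from 0.813 to 1.52 CPM in WT (median 1.02) and from 2.28 to 5.05 in Q175 vehicle (median 3.56), a log2 difference of 1.68 ± 0.25. The 30 mg/kg striata ran from 1.60 to 4.06 CPM (median 2.28) and the 100 mg/kg striata from 0.614 to 3.64 (median 2.79). Of 24 Q175 striata 23 were above the WT range and 1 was below it, and the vehicle ranges did not overlap, as for 0.975% of all genes in striatum. In cortex, Abhd1 ran from 0.571 to 1.54 CPM in WT (median 0.968) and from 1.53 to 6.06 in Q175 vehicle (median 2.66), a log2 difference of 1.42 ± 0.28. The 30 mg/kg cortices ran from 1.26 to 4.97 CPM (median 3.46) and the 100 mg/kg cortices from 1.13 to 3.76 (median 2.29). The vehicle groups in cortex met at their edges, with 7 of 8 Q175 vehicle animals above the WT range, against 0.0625% of all genes with ranges apart.

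Abhd1 was lowest in tibialis, at 0.0614 to 1.41 CPM in WT (median 0.247) and 1.01 to 2.99 in Q175 vehicle (median 1.76), with a log2 difference of 1.97 ± 0.53. The 30 mg/kg muscles ran from 0.204 to 2.21 CPM (median 1.16) and the 100 mg/kg muscles from 0.0539 to 2.15 (median 1.32). Here the vehicle ranges overlapped, and 6 of 8 Q175 vehicle animals lay above the WT range (0% of all genes had ranges apart). The highest WT values came from the libraries that held cortex markers, and without these and the marked 100 mg/kg library the 6 remaining WT animals ran from 0.0614 to 0.461 CPM and the log2 difference was 3.06. The part of the brain markers in the tibialis value was not tested further.

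**Figure D1:**
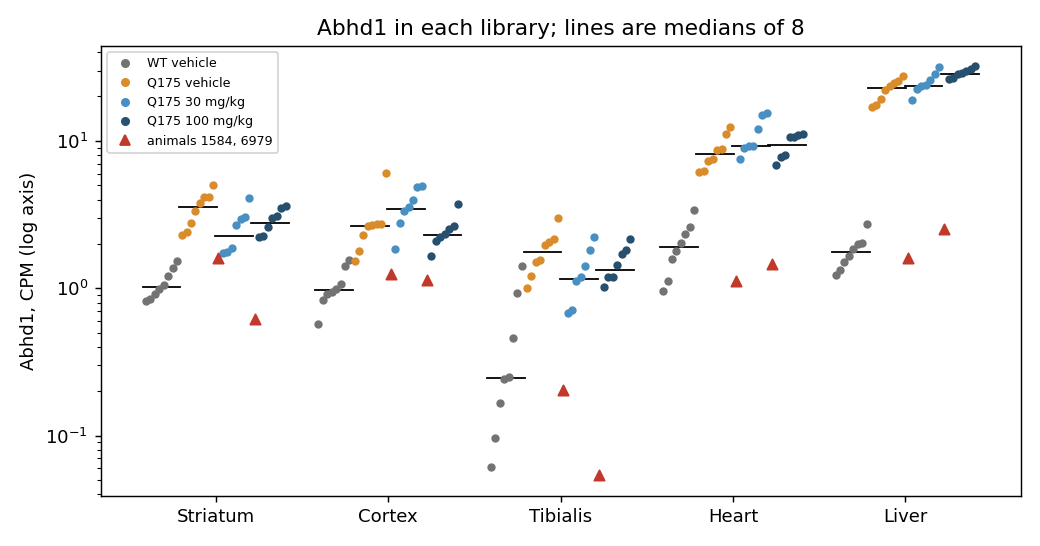
Abhd1 in CPM (log axis) in each of the 160 libraries, by tissue and arm; lines are medians of 8 and red triangles are animals 1584 and 6979. Q175 points lie above WT points in liver and heart apart from the triangles, at 1.61 and 2.54 CPM in liver and 1.12 and 1.47 in heart.

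Animals 1584 and 6979 had the 2 lowest Abhd1 levels of the 24 Q175 animals in every tissue. Animal 1584 had 1.60 CPM in striatum, 1.26 in cortex, 0.204 in tibialis, 1.12 in heart and 1.61 in liver. Animal 6979 had 0.614 in striatum, 1.13 in cortex, 0.0539 in tibialis, 1.47 in heart and 2.54 in liver. The other 22 Q175 animals ran from 1.73 to 5.05 CPM in striatum, from 1.53 to 6.06 in cortex, from 0.678 to 2.99 in tibialis, from 6.14 to 15.5 in heart and from 16.9 to 32.02 in liver. Neither of these animals overlapped the other 22 in any tissue.

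In the same 2 animals Wt1 and Sfmbt2 were outside the WT range in striatum. Their striatal Wt1 was 3.51 CPM in each, above the WT maximum of 0.267, and their striatal Sfmbt2, a Polycomb-family gene, was at 14.1 and 14.7 CPM, above the WT maximum of 4.72. Striatal Htt was at 115 CPM in animal 1584, inside the WT range of 112 to 151 and the highest of the 24 Q175 animals. In animal 6979 striatal Htt was at 99.3 CPM, below the WT range. In the opposite direction, animals 6000, 6776 and 5998, with Wt1 in the WT range, had liver Abhd1 at 27.7, 28.7 and 29.7 CPM, inside the range of the other Q175 animals. Of striatal Wt1, Sfmbt2 and Htt, only Wt1 was in the WT range in these 3 animals. Striatal Sfmbt2 was at 5.43, 5.62 and 6.38 CPM in these animals, above the WT maximum but below every other Q175 animal. The next lowest Q175 animal, 5997, had 10.3 CPM. Striatal Htt was at 89.0, 78.5 and 81.6 CPM, below the WT minimum. No other member had animals 1584 and 6979 as its 2 lowest in every tissue, though some placed them near one end in 1 tissue. Counted from the lowest of 24, striatal Nop14 put them at places 3 and 24, striatal Grk4 at 2 and 21, striatal Rgs12 at 23 and 21 and tibialis Cgref1 at 3 and 2. Liver Emilin1 put them at 24 and 22, with 31.2 and 21.9 CPM against a WT maximum of 23.8. Without these 2 animals, the log2 difference of Abhd1 between all Q175 arms and WT was 1.45 in striatum, 1.497 in cortex, 1.74 in tibialis, 2.30 in heart and 3.82 in liver, against 1.38, 1.42, 1.61, 2.20 and 3.69 with them. Without animals 6000, 6776 and 5998 it was 1.41, 1.32, 1.596, 2.24 and 3.66 in the same order.

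Among the other 22 Q175 animals, the level of Abhd1 in 1 tissue was not correlated with its level in another past the threshold. Pearson's r over the 10 pairs of tissues ran from -0.20 to 0.37 (n = 22), with the lowest permutation p adjusted over the 10 pairs at 0.682 for r. The highest r was between cortex and liver, where Spearman's rho was 0.18 with an adjusted permutation p of 0.946, and r was 0.36 when the 2 animals farthest from the median in cortex were left out. Over all 24 animals the correlation rests on animals 1584 and 6979, which stand apart from the rest, and it is not given.

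Preb, whose exons cover most of Abhd1, did not follow it. In liver Preb ran from 68.0 to 85.0 CPM in WT (median 77.5) and from 63.0 to 94.9 in the 24 Q175 animals (median 77.8), a log2 difference of 0.02 ± 0.06 (edgeR adjusted p = 0.905). In striatum it ran from 30.0 to 45.1 CPM in WT and from 26.1 to 51.7 in Q175, a difference of -0.03 ± 0.10 (adjusted p = 0.926). The groups overlapped in every tissue, and Preb passed the threshold in no tissue under either genotype comparison.

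Khk, Cgref1 and Emilin1, on the other side of Abhd1, passed in no tissue either. Liver Khk ran from 132 to 343 CPM in WT (median 281) and from 157 to 413 in Q175 (median 250), with a log2 difference of 0.05 ± 0.15 (edgeR adjusted p = 0.923). Striatal Cgref1 ran from 9.58 to 15.2 CPM in WT (median 11.97) and from 6.34 to 18.9 in Q175 (median 11.4), a difference of -0.03 ± 0.14 (adjusted p = 0.945). For both genes the Q175 range spread over the WT range on either side or covered most of it.

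Emilin1 had too few counts to be tested in striatum and was tested in the other 4 tissues. In heart it ran from 14.5 to 19.8 CPM in WT (median 16.2) and from 11.1 to 17.9 in Q175 (median 13.5), and 17 of 24 Q175 hearts lay below the WT range. The log2 difference was -0.23 ± 0.05 with an edgeR adjusted p of 0.380 over all heart genes. In tibialis the difference was -0.98 ± 0.34 (adjusted p = 0.213), where WT ran from 0.368 to 2.95 CPM with the highest value in WT F4.

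Beside Htt, Grk4 was higher in Q175 striatum. WT striata ran from 2.08 to 3.03 CPM with a median of 2.57, Q175 vehicle from 2.24 to 3.82 (median 3.05), 30 mg/kg from 2.48 to 4.67 (median 3.73) and 100 mg/kg from 2.75 to 4.71 (median 3.69). The groups overlapped, with 16 of 24 Q175 striata above the highest WT striatum. Over all Q175 arms the log2 difference was 0.44 ± 0.11 (edgeR adjusted p = 0.00977), and between the vehicle arms alone it was 0.23 ± 0.13 (adjusted p = 0.321). Beside it, the summed level of the 4 striatal markers (Drd1, Drd2, Ppp1r1b and Adora2a) ran from 1128 to 1761 CPM in WT, from 812 to 1326 in Q175 vehicle, from 670.3 to 1115 at 30 mg/kg and from 662 to 1137 at 100 mg/kg, and the part of that shift in the members' values was not tested. The 4 cortex markers summed to 17.2 to 235 CPM in WT striata and to 4.32 to 196 in the 24 Q175 striata, ranges that overlapped.

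Nop14 rose by less. WT striata ran from 17.3 to 22.5 CPM (median 18.8), Q175 vehicle from 19.3 to 22.3 (median 20.2), 30 mg/kg from 19.6 to 23.9 (median 23.1) and 100 mg/kg from 20.7 to 24.9 (median 22.2). Of 24 Q175 striata 8 were above the WT range and none was below it. The log2 difference was 0.18 ± 0.05 over all Q175 arms (edgeR adjusted p = 0.0124) and 0.08 ± 0.06 between the vehicle arms (adjusted p = 0.389). Without animals 1584 and 6979 the edgeR adjusted p was 0.00479 for Grk4 and 0.00862 for Nop14, and without animals 6000, 6776 and 5998 it was 0.0138 and 0.0076. Both calls came from the comparison that holds the treated arms, which shares its WT and Q175 vehicle libraries with the other.

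**Figure D2:**
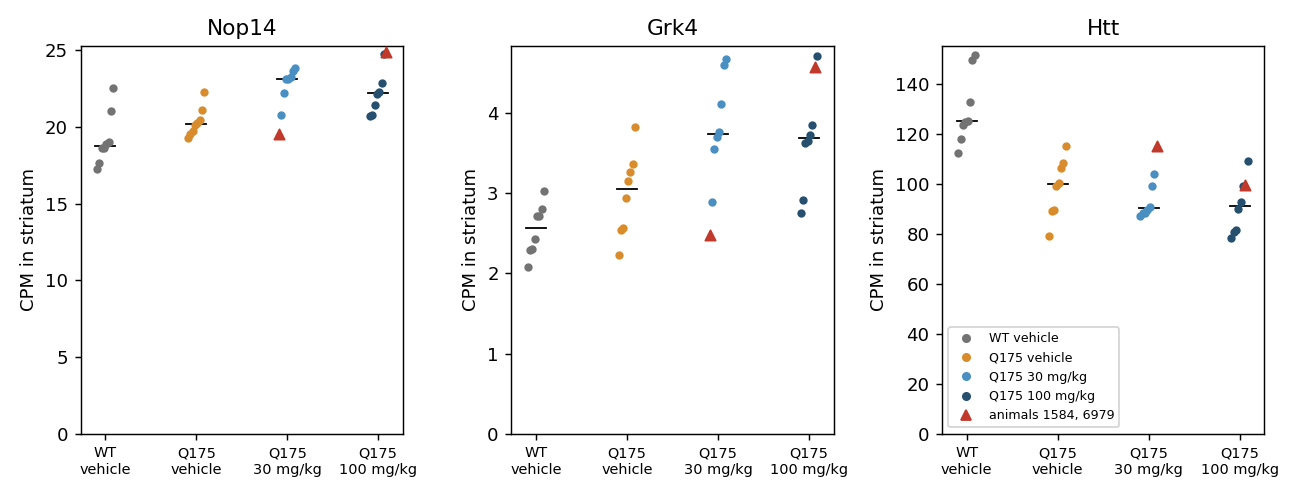
Nop14, Grk4 and Htt in CPM in the 32 striatal libraries, by arm; lines are medians of 8 and red triangles are animals 1584 and 6979. Grk4 medians run from 2.57 in WT to 3.73 at 30 mg/kg and Htt medians are lower in the 3 Q175 arms than in WT. Each Q175 arm overlaps WT for Nop14 and Grk4. For Htt the vehicle and 30 mg/kg arms overlap WT, while the 100 mg/kg arm, at up to 109 CPM, lies below the WT minimum of 112.

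Mfsd10 ran from 2.14 to 4.29 CPM in WT striatum (median 3.26) and from 2.92 to 8.02 in Q175 vehicle. Of the 8 Q175 vehicle striata 5 lay above the WT range, and the log2 difference was 0.65 ± 0.22 with an edgeR adjusted p of 0.0798. DESeq2 put the same difference past the threshold with an adjusted p of 0.0474. Over all Q175 arms the edgeR difference was 0.37 ± 0.18 (adjusted p = 0.262), and 0.35 ± 0.18 (adjusted p = 0.254) without animals 1584 and 6979.

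Add1 ran from 295 to 370 CPM in WT striatum (median 339) and from 243 to 334 in Q175 (median 303), with 8 of 24 Q175 striata below the WT range. The log2 difference over all Q175 arms was -0.14 ± 0.05 (edgeR adjusted p = 0.0633). It lay close to the threshold and passed it for Add1 with DESeq2 (adjusted p = 0.0252), without animals 1584 and 6979 (-0.15, edgeR adjusted p = 0.0495) and without animals 6000, 6776 and 5998 (-0.16, adjusted p = 0.0397). Over the 32 fits that each left out 1 striatal library it passed in 4, those without WT M1, WT F1, 30 mg/kg F2 or 100 mg/kg F2, with adjusted p from 0.0298 to 0.166. Rgs12, on the far side of Htt, ran from 14.6 to 28.8 CPM in WT striatum (median 24.3) and from 15.0 to 38.7 in Q175 (median 21.4), a difference of -0.06 ± 0.13 (adjusted p = 0.873). With edgeR and all libraries, neither gene passed in any tissue under either genotype comparison.

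Between Q175 vehicle and WT, 0 of the 8 members tested beside Abhd1 passed in striatum with edgeR, where 5.76% of all genes passed. An edgeR unadjusted p under 0.05 was found for 2 of 8 members and for 3700 of all 17229 genes. DESeq2 called 1 member, and the share of all genes that DESeq2 called is not given here. Over all Q175 arms, 2 of 8 passed in striatum with edgeR, both higher, where 9.11% of all genes passed and 4.23% were called higher. An edgeR unadjusted p under 0.05 was found for 3 of 8 members and for 3476 of all 17229 genes. DESeq2 called 3 members, the third being Add1. In the other 4 tissues, none of 36 tests of the members passed under either comparison with edgeR or DESeq2. The share of all genes called there with edgeR was 0.0341% in cortex, 0% in tibialis, 0.00626% in heart and 0.00667% in liver for the vehicle arms, and 0.273%, 0%, 0.0125% and 0.493% over all Q175 arms. At an edgeR unadjusted p under 0.05 there were 2 of 36 tests (vehicle) and 5 of 36 (all Q175 arms). Among all genes there were 564 (vehicle) and 790 (all Q175 arms) of 17597 in cortex, and 1176 and 1397 of 14708 in tibialis. Heart had 1791 and 1158 of 15979, and liver 1013 and 1950 of 15001. The median absolute log2 difference of the 8 members in striatum was 0.13 over all Q175 arms, and that of all genes tested was 0.11.

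**Figure D3:**
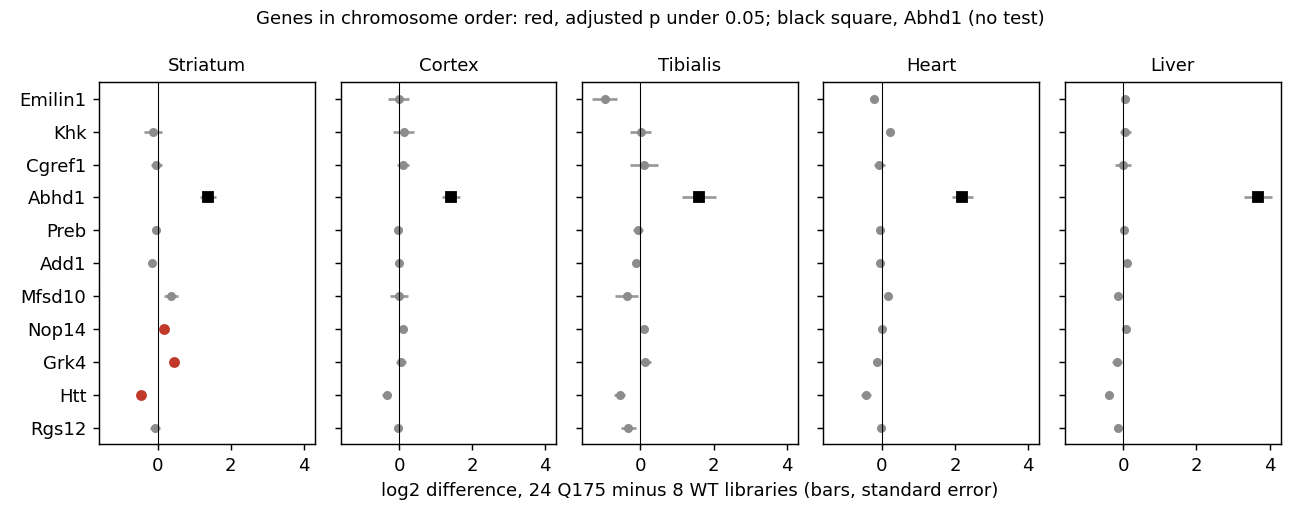
Log2 difference between 24 Q175 and 8 WT libraries for the 10 members and Htt in chromosome order, by tissue, with standard errors; red points passed edgeR's adjusted p of 0.05 and black squares are Abhd1, not tested. Abhd1 lies between 1.38 and 3.69 in the 5 tissues, while Grk4 (0.44), Nop14 (0.18) and Htt (-0.45) in striatum are the red points.

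Whether a member's difference between all Q175 arms and WT varied between tissues was tested on the difference between striatum and another tissue of the same animal. The treated arms are part of this comparison and no WT animals were treated, so it does not separate genotype from the compound. For Grk4 the effect in striatum was 0.56 ± 0.12 log2 above that in heart (limma adjusted p = 0.0138, where 1.91% of all genes passed). Heart Grk4 ran from 1.19 to 1.68 CPM in WT and from 0.965 to 1.89 in Q175, with 8 of 24 below the WT range and 2 above it. Against liver the difference for Grk4 was 0.57 ± 0.18 (adjusted p = 0.109), and against cortex it was 0.38 ± 0.18 (adjusted p = 0.671). Without animals 1584 and 6979 the difference against liver was 0.61 (adjusted p = 0.0496). No other tested member differed past the threshold against cortex, tibialis, heart or liver with limma, where 0.563%, 0.225%, 1.91% and 1.48% of all genes did. Abhd1's own log2 difference was smaller in striatum than in liver by 2.22 ± 0.30 and than in heart by 0.80 ± 0.23, values given without a test.

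No member changed with the compound past the threshold. At 30 mg/kg, 0 of 49 tests of the 10 members over the 5 tissues passed with edgeR. Of these tests 6 had an edgeR unadjusted p under 0.05, and DESeq2 called 0. The share of all genes called with edgeR was 0% in striatum, 0.318% in cortex, 0% in tibialis, 0.00626% in heart and 0% in liver. All genes at an unadjusted p under 0.05 were 2873 of 17229 in striatum and 2831 of 17597 in cortex. They were 165 of 14708 in tibialis, 1296 of 15979 in heart and 573 of 15001 in liver. At 100 mg/kg the members' counts were again 0 with edgeR, 6 unadjusted and 0 with DESeq2. The share of all genes called with edgeR was 0%, 0%, 0%, 0.00626% and 6.85% in the same order of tissues. All genes at an unadjusted p under 0.05 were 4243, 610, 758, 1685 and 3175 of the same totals. Abhd1 differed from the Q175 vehicle arm in striatum by -0.50 ± 0.24 log2 at 30 mg/kg (edgeR adjusted p = 0.288) and by -0.41 ± 0.24 at 100 mg/kg (adjusted p = 0.243), arms that hold animals 1584 and 6979. In liver its differences were -0.01 ± 0.35 and 0.21 ± 0.35 (adjusted p = 0.999 and 0.785). Without these 2 animals Abhd1 differed in striatum by -0.43 ± 0.19 and -0.27 ± 0.19 (edgeR adjusted p = 0.124 and 0.460) and in liver by 0.16 ± 0.12 and 0.38 ± 0.12 (adjusted p = 0.985 and 0.0552), and again 0 of 49 tests of the members passed at either dose. Grk4 in striatum differed by 0.32 ± 0.13 at each dose (adjusted p = 0.288 and 0.199).

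With all animals, the member nearest to the threshold under the compound was Rgs12 in liver, at -0.38 ± 0.13 log2 at 100 mg/kg (edgeR adjusted p = 0.0775). Emilin1 in cortex at 30 mg/kg differed by 1.44 ± 0.40 (adjusted p = 0.142), and 2 libraries of that arm, M3 and F4, held muscle markers at 7.0% and 35.0% of the tibialis median. The part of the muscle markers in the value was not tested. Cgref1 in liver at 100 mg/kg differed by 0.79 ± 0.29 (adjusted p = 0.104), at levels under 1 CPM.

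Sex differences were found in heart and liver. In liver 5 of 10 members passed with edgeR, where 32.8% of all genes did. Cgref1 (0.61 log2, adjusted p = 0.0255), Preb (0.19, adjusted p = 0.00404) and Nop14 (0.17, adjusted p = 0.000708) were higher in males, and Emilin1 (-0.42, adjusted p = 0.00156) and Rgs12 (-0.66, adjusted p = 2.67e-06) were lower, directions in which 15.7% and 17% of all genes passed. In heart 2 of 10 passed, where 5.31% of all genes did, with Khk higher in males (0.26, adjusted p = 0.0167) and Emilin1 lower (-0.22, adjusted p = 0.00732), against 3.27% and 2.04% of all genes. Without animals 6000, 6776 and 5998 liver Cgref1 no longer passed (0.55, adjusted p = 0.0711). In striatum, cortex and tibialis 0 of the members passed with edgeR or DESeq2, and 0.221%, 0.0739% and 2.12% of all genes passed with edgeR. An edgeR unadjusted p under 0.05 was found for 0 members there. It was found for 1997 of 17229 genes in striatum, 912 of 17597 in cortex and 1785 of 14708 in tibialis. Abhd1 in heart was higher in males by 0.67 ± 0.21 (adjusted p = 0.0589), and by 0.50 (adjusted p = 0.0204) without animals 1584 and 6979, which are both female.

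The members differ widely in where they are used, as read from the deposited FPKM values (per length and depth) over the 32 libraries of each tissue. Khk was highest in liver, with a median of 184 FPKM (107 to 288), and its liver range lay apart from that of heart, the next tissue (median 7.58). Preb was also highest in liver, at a median of 57.6 FPKM, apart from heart at 24.1. Abhd1 had a median of 17.4 FPKM in liver and 6.19 in heart, and these ranges, taken over both genotypes, overlapped. In the 8 WT animals alone Abhd1 had a median of 1.34 FPKM in liver (1.03 to 1.83) and 1.45 in heart (0.693 to 2.18), ranges that overlapped.

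Of the genes around Htt, Add1 and Rgs12 had ranges in both brain tissues apart from those of the other tissues. Add1 had median levels of 90.7 FPKM in striatum and 84.4 in cortex, which overlapped each other and lay apart from heart at 30.4. Rgs12 was at 10.1 FPKM in cortex and 9.23 in striatum, apart from heart at 4.65, and Cgref1, beside Abhd1, was at 8.81 FPKM in striatum and 7.47 in cortex, apart from tibialis at 0.553. Nop14 was even, from a median of 5.04 FPKM in liver to 8.19 in cortex with neighbouring tissues overlapping. Grk4 ran from 0.473 FPKM in liver to 2.04 in cortex, and Mfsd10 from 0.471 in tibialis to 4.78 in cortex. Emilin1 was highest in liver (5.88) and heart (5.16), which overlapped each other, and heart lay apart from tibialis (0.312).

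Beyond the members, the other genes of this stretch were counted by their order from Htt, comparing all Q175 arms with WT. In striatum 4 of the 18 tested genes among the 10 on each side of Htt passed (22.2%), 9 of 92 among the 50 on each side (9.78%) and 7 of 56 between Abhd1 and Htt (12.5%). On the rest of chromosome 5 it was 87 of 936 (9.29%), and on other chromosomes 1466 of 16022 (9.15%). The nearest genes therefore had the highest share, on a count of 4 that includes Grk4 and Nop14. Within 50 places of Htt, 0 of 92 genes passed in cortex with edgeR (10 with an unadjusted p under 0.05 and 1 by DESeq2), 0 of 79 in tibialis (8 and 0), 0 of 88 in heart (8 and 0) and 1 of 77 in liver, or 1.3%. Of all genes, 790 of 17597 in cortex, 1397 of 14708 in tibialis and 1158 of 15979 in heart had an edgeR unadjusted p under 0.05. These are counts, with no test of the sets.

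The genes that passed in this stretch over all Q175 arms, treated arms included, moved in both directions. In striatum Stx18, a syntaxin of the endoplasmic reticulum, rose by 0.18 log2 (edgeR adjusted p = 0.00291), as did Slc5a6, a vitamin transporter (0.28, adjusted p = 0.0178), and Acox3, a peroxisomal acyl-CoA oxidase (0.26, adjusted p = 0.0206). Zfyve28 (-0.37, adjusted p = 0.0161), Atraid (-0.19, adjusted p = 0.0121), Krtcap3 (-0.52, adjusted p = 0.0183), Cytl1 (-0.69, adjusted p = 0.0181), D5Ertd579e (-0.27, adjusted p = 0.0462) and Gm15513 (-0.44, adjusted p = 0.0493) fell. In liver Pisd, which makes phosphatidylethanolamine in mitochondria, rose by 0.27 (adjusted p = 0.000285), from 23.9 to 27.2 CPM in WT to 26.1 to 35.7 in Q175. Animals 1584 and 6979 had Pisd at 29.0 and 31.2 CPM in liver, both above the WT range. Between the vehicle arms alone, Stx18, Slc5a6, Acox3 and D5Ertd579e also passed (edgeR adjusted p = 0.0101, 0.0136, 0.0270 and 0.0392). The other genes named here did not, with edgeR adjusted p from 0.0594 for Atraid to 0.615 for Krtcap3, and 0.556 for liver Pisd.

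The gene most like Abhd1 across the 160 libraries was Galnt11, also on chromosome 5. Of 12620 genes tested in all 5 tissues, its log2 CPM less the tissue mean had the highest Pearson r with that of Abhd1, at 0.70, and the next were Lpcat3 (0.44), Gstm4 (0.42), Dhcr7 (0.41) and Pgd (0.41), on chromosomes 6, 3, 7 and 4. The members' own values were lower, with Khk at 0.39, Cgref1 at 0.33, Preb at 0.25 and Grk4 at -0.21, and Htt was at -0.39. Counted from the highest r of the 12620 genes, Khk was at place 13, Cgref1 at 60, Preb at 958, Grk4 at 11286 and Htt at 12617. The libraries share animals and arms, so these are descriptions with no p. Galnt11 (chr5:25221904-25265918, plus strand) encodes an enzyme that starts O-linked glycosylation, and it begins 9.54 Mb before Htt, farther than Abhd1.

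Galnt11 parted the same animals as Abhd1 did. In liver WT animals ran from 9.01 to 11.3 CPM, animals 1584 and 6979 had 9.82 and 11.0, and the other 22 Q175 animals ran from 14.01 to 25.3. In striatum WT ran from 27.1 to 32.5 CPM, animals 1584 and 6979 had 29.3 and 31.97, and the other 22 ran from 33.9 to 44.1. In cortex the other 22 were also all above WT, in heart 20 of 22 were and in tibialis 4 of 22. The log2 difference over all Q175 arms was 0.60 in liver, 0.30 in striatum, 0.21 in cortex, 0.14 in heart and 0.12 in tibialis, smaller in each tissue than that of Abhd1. Without animals 1584 and 6979 it was 0.64, 0.32, 0.23, 0.16 and 0.15 in the same order. Animals 1579 and 5982 had the 2 highest Galnt11 levels in every tissue. As Galnt11 was picked for its likeness to Abhd1, these values are a description.

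**Figure D4:**
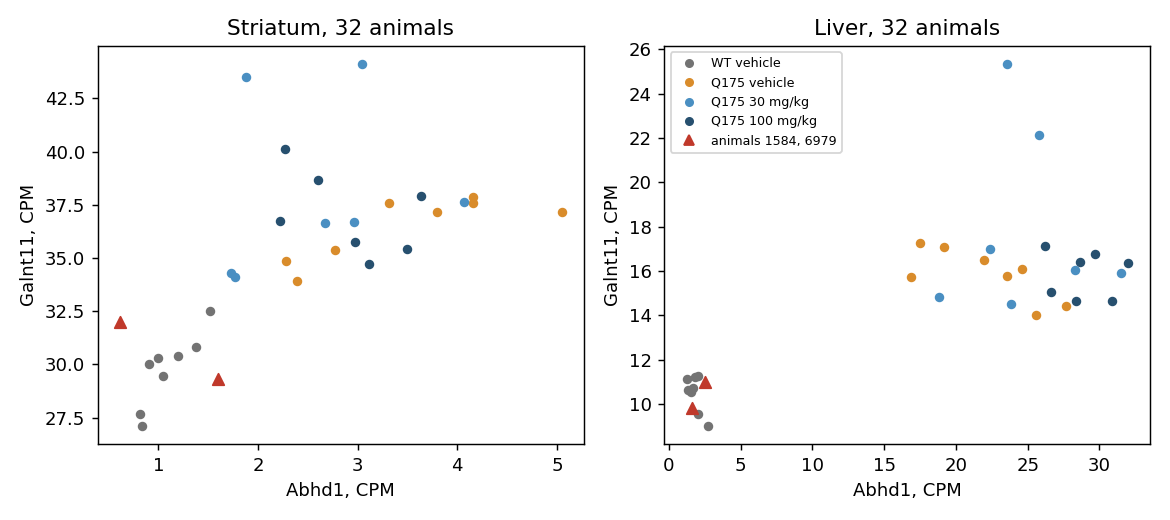
Abhd1 against Galnt11, both in CPM, in striatum and liver of the 32 animals, coloured by arm, with animals 1584 and 6979 as red triangles. In liver the triangles (Galnt11 at 9.82 and 11.0) lie among WT animals and the other 22 Q175 animals lie apart, from 14.01 CPM up.

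Low-count genes farther from Htt also had large differences in the brain, and they were picked after their values were seen. In striatum the log2 differences over all Q175 arms were 2.40 for Gm10471, 1.59 for Gm5067, 1.51 for Speer4b and 1.26 for 5031410I06Rik, and in cortex it was 1.87 for Gm10471. Measured from the Htt start, these genes begin at positions from -8.76 to -7.27 Mb, and none reached 2 CPM in any of these libraries. They belong to repeated families of near-identical copies, or are annotated as a pseudogene, so how their reads were assigned is uncertain. In striatum animal 1584 was above the WT maximum in 0 of these 4 genes and animal 6979 in 3 of them. Animal 6979 had Gm10471 at 0.341 CPM (WT maximum 0.261), 5031410I06Rik at 0.409 (0.267) and Speer4b at 0.273 (0.228), and Gm5067 at 0.205 (0.340). In cortex Gm10471 was at 0.258 CPM in animal 1584 and 0.0567 in animal 6979, both under the WT maximum of 0.506.

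**Figure D5:**
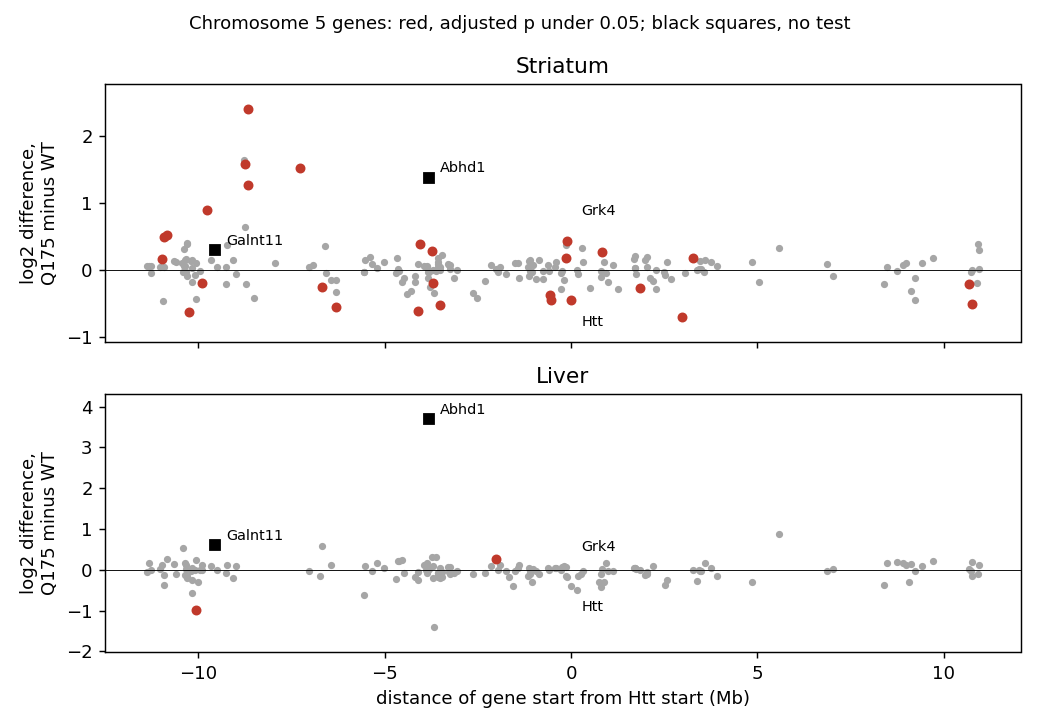
Log2 difference between all Q175 arms and WT for tested chromosome 5 genes within 12 Mb of Htt, against the distance of the gene start from that of Htt, in striatum and liver; red points passed edgeR's adjusted p of 0.05 and black squares, Abhd1 and Galnt11, are not tested. Most genes lie near 0 and Abhd1 stands highest in liver, at 3.69.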

How the data were processed

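RNA-seq libraries came from 5 tissues of 32 mice. The authors deposited 1 table of estimated counts and 1 of FPKM values (fragments scaled by gene length and library size) for 43432 genes, and the submitters' processing notes list CASAVA 1.8.2. Which aligner, annotation, build and counting strand were used is not given in the sources used here. Of the count values above 0, 26.3% were not whole, and they were rounded. Identifiers were matched to symbols (42462 of 43432), and gene order came from GENCODE M21. Each tissue was fitted on its own with edgeR 4.0.16 (R 4.3.3) over 32 libraries: filterByExpr, TMM, arm and sex as terms, robust quasi-likelihood tests, Benjamini-Hochberg adjustment over all genes tested in the tissue and a threshold of 0.05. Differences between tissues of an animal were fitted with limma 3.58.1 on log2 CPM with a prior count of 2. The alternatives used DESeq2 1.42.0, limma on log2(FPKM + 0.1) and log2(FPKM + 1), other size factors, no filter, a term for column name style, left-out libraries and a replicate block. The scripts were tested on simulated data. CPM in the text are count rates on TMM-scaled totals. Library totals of 29.8 M to 44.9 M limit the precision of genes under 1 CPM. Replicates are separate animals. All 10 members and Htt were named in every tissue, with up to 10 neighbours by smallest p and the 5 genes most like Abhd1. The members and lists were chosen with earlier results of these data known.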

Additional observations from a re-analysis of the deposited data

Results flagged for a closer look

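Among the 200 groups of 8 libraries (10 members, 5 tissues, 4 arms), 16 had a highest or lowest library farther from the rest than Dixon's critical value for 8 values allows, and chance picks out about 1 group in 20. Abhd1 gave 5 of them. In the 100 mg/kg arm animal 6979 was lowest, at 0.614 CPM in striatum (F4), 1.47 in heart (F3) and 2.54 in liver (F2), and in the 30 mg/kg arm animal 1584 was lowest in liver at 1.61 CPM (F3). The Q175 vehicle cortex library M3, of animal 6000, was highest for Abhd1 at 6.06 CPM and for Khk at 6.40 CPM. The tibialis library M1 of the 100 mg/kg arm, which held cortex markers at 17.3% of the cortex median, was highest for Add1 at 60.1 CPM, for Mfsd10 at 1.66 and for Rgs12 at 4.82. Rgs12 was also highest at 38.7 CPM in Q175 vehicle striatum M2, of animal 6000, at 33.5 in 30 mg/kg striatum F2, of animal 1584, and at 46.7 in WT cortex F3. Emilin1 was highest at 2.95 CPM in WT tibialis F4 and at 19.8 in WT heart F4. Preb was highest at 45.5 CPM in Q175 vehicle heart M1 and at 47.9 in 30 mg/kg heart M4. The difference of Grk4 between all Q175 arms, treated arms included, and WT was 0.56 log2 higher in striatum than in heart. This was by limma's test of the difference within animals, with an adjusted p of 0.0138.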

How the results depend on the processing

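No direction turned among single-gene values that passed the threshold in either of the fits compared, nor for Abhd1 between genotypes. Changes of sign between fits that both missed the threshold were not counted. Of the single-gene values 365 stayed on their side of the threshold, 22 newly passed it and 11 no longer did. Grk4 and Nop14 passed in striatum over all Q175 arms in all 32 fits that each left out 1 striatal library, with adjusted p up to 0.0314 and 0.0454. Between the vehicle arms in striatum the 0 members became 1 with limma on log2(FPKM + 0.1) and on log2(FPKM + 1) (Nop14) and 1 with DESeq2 (Mfsd10), and ran from 0 to 1 as libraries were left out (1, Mfsd10, without Q175 vehicle F4 or WT M4). On log2(FPKM + 1) the difference of Abhd1 was 1.06 (vehicle) and 0.80 (all Q175 arms) in striatum, 0.79 and 0.80 in cortex and 0.84 and 0.61 in tibialis, since the pseudocount shrinks differences of low genes. Without libraries over the marker limit, Abhd1 in tibialis differed by 3.06 and 2.65. The genes passing within 50 places of Htt became 1 in cortex with DESeq2, 4 in tibialis with no filter and 5 there without animals 6000, 6776 and 5998, and 0 in liver when 25 genes on each side were taken. With libraries left out they ran from 5 to 10 in striatum (5 without WT F3), from 0 to 1 in cortex (1 without WT M2) and from 0 to 2 in tibialis (2 without WT M1, M2 or M3). The 5 sex differences in liver became 3 on log2(FPKM + 0.1) and 2 on log2(FPKM + 1). Between striatum and liver, 0 members became 1 (Grk4) without animals 1584 and 6979. Other causes were not tested. Leaving out these, the 3 animals and single treated striatal libraries was chosen after seeing the data. With a replicate block the members passing in striatum over all Q175 arms were again 2, Grk4 at 0.43 (adjusted p = 0.0141) and Nop14 at 0.18 (adjusted p = 0.0188), and no count of members changed. Same-numbered libraries are not the same animal, and their deviations had median correlations of -0.048 to 0.08 per tissue. The fit without libraries over the marker limit was not run in heart, where all 32 are over it. Counting precision limits Emilin1 in brain, Cgref1 in heart and liver, and Abhd1 in WT tibialis, all under 3 CPM.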
